A study of Caenorhabditis elegans with 24 samples.

Results

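The nlp genes of Caenorhabditis elegans encode neuropeptide-like proteins, the precursors of short signalling peptides that lack the FMRFamide ending of the flp family. The neuronal nlp genes described here are those whose name stands alone on a probe set of the Affymetrix C. elegans array, except nlp-24 to nlp-34, which are mostly made in the epidermis and belong to the response to infection. They numbered 52 probe sets for 48 genes, of 22548 probe sets tested. A further 2 probe sets carried an nlp name together with a second gene and were left out. For 4 genes (nlp-6, nlp-9, nlp-16 and nlp-99) there were 2 probe sets each, and the one with the higher mean over all arrays stands for the gene unless both are given.

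A neuropeptide precursor is cut at pairs of basic residues by the proprotein convertase EGL-3, trimmed by the carboxypeptidase EGL-21 and in many cases amidated at its end, and the peptides leave the neuron from dense-core vesicles with the help of UNC-31. They act on G protein-coupled receptors, often at a distance from the synapse. Known roles of nlp peptides in the worm include the control of egg laying (nlp-3 and nlp-7), of sleep-like states (nlp-8, nlp-14 and nlp-22), of olfactory behaviour (nlp-1) and of locomotion (nlp-12). Many nlp genes are active in sensory neurons and interneurons of the head, and a few are also active in the intestine, as nlp-40 is, whose peptides trigger the expulsion step of defecation.

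Neuronal RNA was compared with reference RNA in 3 pairs of groups. The embryonic pan-neural sample (3 arrays) came from the strain NW1229, in which the integrated transgene evIs111 makes GFP from the promoter of F25B3.3, a gene active in most or all neurons. Its embryos were dissociated, the cells were kept in culture for a day, and GFP-positive cells were sorted. The embryonic reference (4 arrays) was all viable cells of embryonic cultures, profiled in earlier work. The larval samples were taken at the second larval stage (L2) by mRNA-tagging. There a transgene gives selected cells a poly(A)-binding protein that carries the FLAG epitope, FLAG::PAB-1, and an antibody to FLAG brings down this protein and the transcripts on it. The larval pan-neural sample (3 arrays) came from SD1241, in which the integrated transgene gaIs153 makes the tagged protein from the F25B3.3 promoter. The larval A-class sample (4 arrays) came from NC694, in which wdEx257 carries unc-4::3XFLAG::PAB-1. The tag was seen in VA, SAB, I5 and AVF neurons and more faintly in DA neurons, and VA, SAB and DA are A-class motor neurons. An extrachromosomal array, as the name wdEx257 denotes, can be lost from some cells. The larval reference (5 arrays) was RNA bound without the tag in control pull-downs from wild-type N2 larvae of the same stage, and both larval samples were compared with the same 5 hybridizations, so that the 24 data columns stand for 19 hybridizations. Every sample mixes many neuron types, and fewer cells of a type and less RNA per cell cannot be told apart in it.

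All values are log2 of the deposited array intensities, which are comparable only within a set of arrays that was normalized together, and a change is the mean log2 intensity of the neuronal arrays minus the mean of their reference. A probe set was called when its limma p-value, adjusted by Benjamini-Hochberg over all 22548 probe sets, was under 0.01 and its change was at least 1.5-fold. SE stands for limma's moderated standard error. The arrays are labelled as biological replicates. Squared correlations between replicate arrays lay between 0.918 and 0.991 over the 6 groups. Of 10 pan-neuronal marker genes, 8 were called higher in the larval pan-neural sample (median change 1.30), 4 in A-class RNA (median 0.50) and 1 in embryonic neurons (median 0.73). Both A-class markers, unc-4 and unc-3, were called higher in the A-class sample. Of 8 body wall muscle markers 3 were called lower in the embryonic sample and none in the larval pan-neural sample, where limma gave 6 an unadjusted p under 0.05 in that direction. In larval pan-neural arrays 4 of 8 intestinal markers were called lower, while in the embryonic sample 1 was called higher (cpr-1, 1.42, adjusted p = 0.0029) and none lower, with 2 at an unadjusted p under 0.05 in that direction. Of 8 hypodermal markers 1 was called lower in embryonic and 2 in larval pan-neural arrays. No marker of muscle, intestine, germline or hypodermis passed the test in the A-class sample, but 4 hypodermal markers had a limma p under 0.05 before adjustment with a change above 0. The summed intensity of the hypodermal markers was 25130 to 31520 in the A-class arrays and 17130 to 24600 in their references, and its part in the A-class results was not tested.

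Some arrays stood apart in the nlp genes. Embryonic reference replicate 1 was the highest of its group for 37 of the 52 nlp probe sets, at a median of 0.64 above the mean of the other embryonic references, while this median was 0.00 over all probe sets. The summed intensity of the 10 pan-neuronal markers was 6454 in this array and 3941 to 5886 in the other 3. This array was also the highest for hypodermis (7087, against 3108 to 4808) and body wall muscle (4105, against 2462 to 3926). For intestine it was not (1714, against 960.2 to 2093). Larval pan-neural replicate 2 was the lowest of its group for 42 of 52 (median deviation -0.38). Its summed intensities were 4353 for markers of other neuron classes, against 6277 and 6060 in replicates 1 and 3, but 17690 for body wall muscle, against 11190 and 13860, and 15360 for hypodermis, against 11750 and 10320. Larval A-class replicate 1, the only larval array with its wash protocol, was the highest of its group for 32 of 52 (median deviation 0.18). The part of these arrays in the results was not tested beyond the fits without them that are given below.

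The first comparison asked which nlp transcripts were enriched in the larval nervous system. They were enriched almost throughout. Of 48 genes 38 were called higher in the larval pan-neural sample than in the larval reference, by 1.65-fold (nlp-12) to 8.52-fold (nlp-21), and 26 of them rose at least 4-fold. In probe sets this was 40 of 52, or 76.9%, beside 6.08% of all probe sets on the array. The median change of the 52 was 2.02 on the log2 scale, against 0.00 over all probe sets. None was called lower, beside 3.34% of all probe sets, and limma gave 1 of the 52 an unadjusted p under 0.05 in that direction. In 41 of the 52 every larval pan-neural array lay above every reference array, as in 12.5% of all probe sets. The median change was 2.13, 1.75 and 2.18 in the 3 larval pan-neural arrays.

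**Figure D1:**
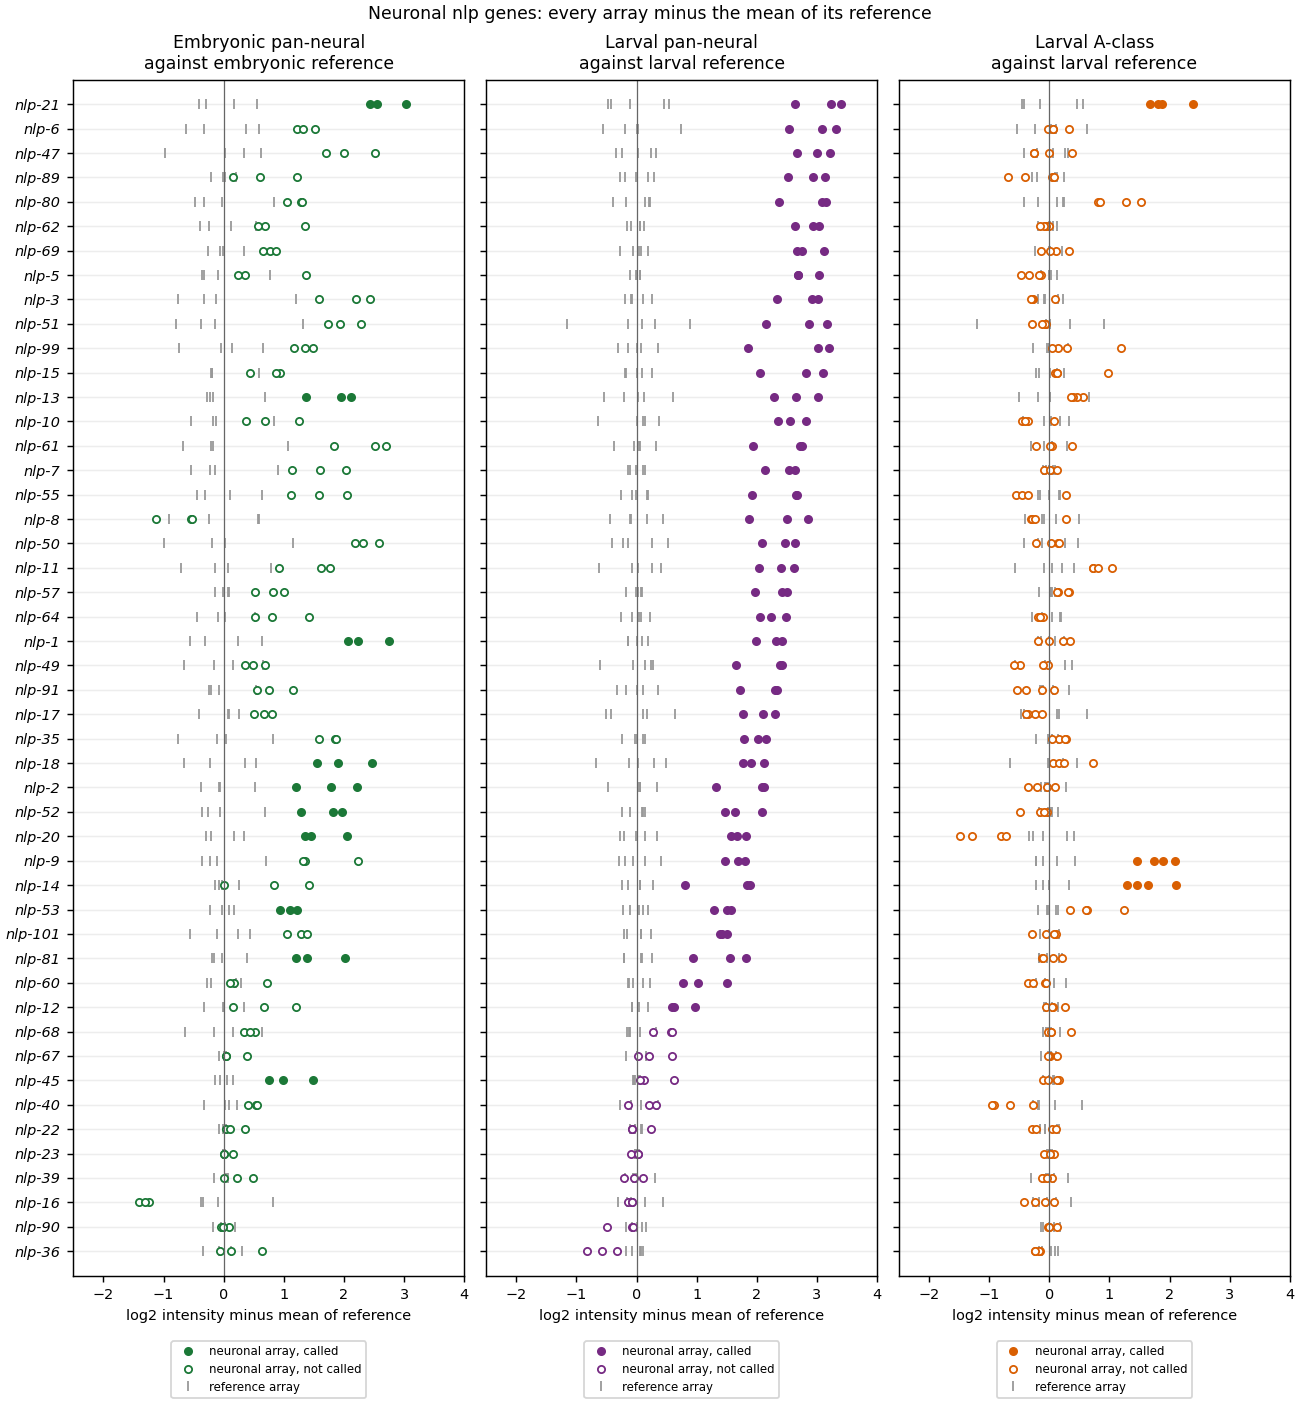
Log2 intensity of each array minus the mean of its reference group, for the 48 neuronal nlp genes ordered by their change in the larval pan-neural sample, in one panel for each neuronal sample (embryo, whole larval nervous system, A-class). Circles are neuronal arrays, filled where the gene was called, and grey ticks are reference arrays. Filled circles mark 10, 38 and 3 genes in the 3 panels, and the larval pan-neural circles reach beyond 3 for nlp-21.

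The gene with the largest rise was nlp-21, which encodes peptides of the GGARAF family and is known from the AFD sensory neuron, the ventral nerve cord and the intestine. Its log2 intensity was 10.25, 9.48 and 10.07 in the larval pan-neural arrays, against 6.37, 6.74, 6.42, 7.39 and 7.30 in the reference arrays. The groups did not overlap, and the change was 3.09 ± 0.28 (SE, limma adjusted p = 9.97e-05). The RefSeq annotation places nlp-21 in overlap with another coding gene, subs-4, and its probe set is marked as shared between transcripts, so that the 2 genes may not be separate here.

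Next in order were nlp-6, nlp-47, nlp-89, nlp-80 and nlp-62. The precursor of nlp-47 holds a peptide related to gonadotropin-releasing and adipokinetic hormones. Its log2 intensity was 9.90, 9.35 and 9.68 in the larval pan-neural arrays and 6.34, 6.71, 6.45, 7.01 and 6.92 in the reference arrays, a change of 2.96 ± 0.18 (adjusted p = 1.51e-05). nlp-6, known from the ASI sensory neuron and the IL2 neurons, had 10.37, 9.58 and 10.14 in the larval pan-neural arrays against 6.49, 7.07, 6.86, 7.78 and 7.05 in the reference arrays. The groups did not overlap for either gene, and the change of nlp-6 was 2.98 ± 0.28 (adjusted p = 0.000117). The dimmer probe set of nlp-6 had 5.76, 5.62 and 5.79 in the larval pan-neural arrays and 4.61 to 5.54 in the reference arrays, a change of 0.48 that was not called (adjusted p = 0.132).

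The changes of nlp-89, nlp-80 and nlp-62 were 2.87, 2.87 and 2.86, with SE of 0.17, 0.21 and 0.12 and limma adjusted p of 1.44e-05, 3.54e-05 and 3.72e-06. nlp-89 had 10.64, 10.02 and 10.44 in the larval pan-neural arrays and 7.22 to 7.79 in the reference arrays, and nlp-80 had 11.89, 11.11 and 11.82 against 8.35 to 8.96. The level of nlp-62 was 9.80, 9.49 and 9.89 in the larval pan-neural arrays and between 6.70 and 6.98 in all 5 reference arrays, the tightest grouping of the 3 genes. The changes of the 6 leading genes, 2.86 to 3.09, lay close together beside SEs of 0.12 to 0.28.

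Calls by sequence family follow. Since 38 of all 48 nlp genes were called higher, calls throughout a small family lie near the share of the whole set. The GFxGF family, whose peptides resemble the orcokinins of arthropods, has 4 genes here, and all were called higher in the larval pan-neural sample. They were nlp-3, which acts in the HSN neurons to promote egg laying (2.76 ± 0.17), nlp-15 (2.66 ± 0.22), nlp-8 (2.41 ± 0.24) and nlp-14 (1.51 ± 0.24), both of which act in the ALA neuron in stress-induced sleep. nlp-15, known from ASH, CAN, HSN and ventral cord neurons, had 9.51, 8.74 and 9.78 in the larval pan-neural arrays and 6.5 to 6.95 in the reference arrays. The level of nlp-3 was 11.73, 11.15 and 11.84 in the larval pan-neural arrays and 8.63 to 9.07 in the reference arrays. The 3 buccalin-like genes of the MSFamide family rose by 2.24 ± 0.13 (nlp-1), 2.44 ± 0.13 (nlp-7) and 2.65 ± 0.25 (nlp-13), with limma adjusted p of 1.27e-05, 1.14e-05 and 0.000132. nlp-1 is released by the AWC olfactory neuron onto a partner that carries the receptor NPR-11, and its level was 10.95, 10.62 and 11.06 in the larval pan-neural arrays and 8.49 to 8.84 in the reference arrays. The FAFA genes nlp-18 and nlp-20 rose by 1.93 ± 0.23 and 1.69 ± 0.15, and nlp-9, the second GGARAF gene, by 1.65 ± 0.16 on one probe set and 1.16 ± 0.12 on the other.

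Of the FRPamide genes only nlp-2 had a group mean above a log2 intensity of 5. How the family moved as a whole thus cannot be told. nlp-2 was called higher, with 6.93, 6.17 and 6.97 in the larval pan-neural arrays and 4.38 to 5.18 in the reference arrays (change 1.84 ± 0.22, adjusted p = 0.000502). nlp-22, a gene of the RIA interneuron that induces quiescence during the larval molt, had 5.00, 4.68 and 4.68 in the larval pan-neural arrays and 4.65 to 4.85 in the reference arrays, and nlp-23 changed by -0.01. The groups overlapped for both, and both genes stayed under a log2 intensity of 5 in all 6 group means, as nlp-39, nlp-67 and nlp-90 did. At that signal 25.8% of all probe sets of the larval pan-neural set lay, and a difference in these 5 genes was not detectable.

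Apart from those 5 genes, 5 others were not called in the larval pan-neural sample. nlp-40, the intestinal gene, had 9.48, 9.13 and 9.59 in the larval pan-neural arrays and 9.0, 9.35, 9.18, 9.63 and 9.18 in the reference arrays, so that the groups overlapped (change 0.13 ± 0.16, adjusted p = 0.681). nlp-36 had 8.75, 9.26 and 9.0 in the larval pan-neural arrays and 9.39 to 9.69 in the reference arrays, a change of -0.58 ± 0.13 that missed the threshold (adjusted p = 0.0126). The gene overlaps dars-1 in the RefSeq annotation, and its probe set is marked as open to cross-hybridization, so that the 2 genes may not be separate here. The changes of nlp-16, nlp-45 and nlp-68 lay between -0.10 and 0.48. nlp-12, a cholecystokinin-like gene of the stretch-sensitive DVA neuron, was called, with the smallest rise of the 38 (9.80, 9.44 and 9.41 in the larval pan-neural arrays, 8.75 to 9.01 in the reference arrays, adjusted p = 0.00274).

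Without any single array 38 to 40 of the nlp probe sets were still called higher, and 40 without the low replicate 2. nlp-14 missed the threshold without larval pan-neural replicate 1 (adjusted p = 0.0145) or 3 (adjusted p = 0.0162). One hybridization day held 2 larval pan-neural and 2 reference arrays. Within it the median change of the 52 nlp probe sets was 1.89, against -0.01 over all probe sets. The 40 called probe sets changed by 0.55 to 2.89. Both neuronal arrays lay above both references for all 40, and for 26.1% of all probe sets on the array. The 40 were called in a fit that held these same arrays, so that their count is no separate check. No probe set of the array passed the adjusted test over these 4 arrays, and with the day as a fixed block 26 of the 52 were called.

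The second comparison asked the same of embryonic neurons in culture. The nlp genes lay mostly above the reference here too, but with smaller changes and more spread. Of 48 genes 10 were called higher in the embryonic pan-neural sample than in the embryonic reference, namely nlp-1, nlp-2, nlp-13, nlp-18, nlp-20, nlp-21, nlp-45, nlp-52, nlp-53 and nlp-81, by 2.10-fold to 6.35-fold. In probe sets this was 11 of 52, or 21.2%, beside 1.96% of all probe sets. The median change of the 52 was 0.99, against 0.04 over all, and 46 of the 48 genes had a change above 0. None was called lower, beside 2.78% of all probe sets, and limma gave 1 of the 52 an unadjusted p under 0.05 in that direction. A further 14 genes had a change of at least 2-fold that missed the threshold. In 32 of the 52 probe sets every embryonic pan-neural array lay above every reference array, as in 15.3% of all probe sets.

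nlp-21 led here as well, with 7.91, 7.32 and 7.44 in the embryonic pan-neural arrays and 5.43, 4.47, 5.05 and 4.58 in the reference arrays. The groups lay well apart, and the change was 2.67 ± 0.26 (adjusted p = 0.00169). nlp-1 had 8.62, 8.10 and 7.94 in the embryonic pan-neural arrays and 6.52, 5.56, 6.11 and 5.32 in the reference arrays (2.34 ± 0.30, adjusted p = 0.0037). nlp-18, known from ASI, NSM and the intestine, had 8.81, 9.17 and 9.73 in the embryonic pan-neural arrays and 7.62, 7.05, 7.80 and 6.60 in the reference arrays (1.97 ± 0.33, adjusted p = 0.009). Reference replicate 1 was the highest of its group for nlp-21 and nlp-1, and replicate 3 for nlp-18.

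nlp-13, an MSFamide gene of the NSM and other pharyngeal neurons, had 8.42, 8.26 and 7.68 in the embryonic pan-neural arrays and 6.99, 6.08, 6.02 and 6.13 in the reference arrays (1.82 ± 0.28, adjusted p = 0.00681). nlp-2 had 7.23, 6.80 and 6.22 in the embryonic pan-neural arrays and 5.54, 4.97, 4.95 and 4.64 in the reference arrays (1.73 ± 0.28, adjusted p = 0.00782). nlp-52 had 8.16, 7.63 and 8.31 in the embryonic pan-neural arrays and 7.03, 6.09, 6.28 and 5.98 in the reference arrays (1.69 ± 0.28, adjusted p = 0.0086). In all 3 genes the nearest reference array to the neuronal ones was replicate 1.

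Genes with a large change that was not called included nlp-3 (2.08 ± 0.45, adjusted p = 0.0212), nlp-47 (2.07 ± 0.38, adjusted p = 0.0119), nlp-9 (1.63 ± 0.32, adjusted p = 0.0147) and nlp-7 (1.59 ± 0.36, adjusted p = 0.0244). For nlp-3 the embryonic pan-neural arrays held 11.47, 11.23 and 10.62 and the reference arrays 10.23, 8.90, 8.71 and 8.27, so that the groups did not overlap although replicate 1 lay well above the other references. Changes below 0 were found in nlp-16, with 5.34, 5.50 and 5.43 in the embryonic pan-neural arrays and 7.56, 6.40, 6.65 and 6.37 in the reference arrays (-1.32 ± 0.28, adjusted p = 0.0202), and in nlp-8 (-0.73 ± 0.38, adjusted p = 0.237). For nlp-99 the second probe set was called (1.58, adjusted p = 0.00735) and the one that stands for the gene was not (1.33, adjusted p = 0.0227).

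The embryonic count depended on single arrays. It was 23 of 52 without reference replicate 1, 9 of them among the original 11. Over the whole array 566 of 22548 probe sets were called higher in that fit, against 442 with all arrays. The nlp count was 0 without embryonic pan-neural replicate 1, when 24 probe sets of the whole array were left. It was 1, with nlp-21 alone, without embryonic pan-neural replicate 2 or 3 or without reference replicate 2 or 3, and 3 without reference replicate 4. Without reference replicate 1 the changes were 2.48 for nlp-3 (adjusted p = 0.00222), 1.89 for nlp-7 (0.00425), 1.87 for nlp-9 (0.00503) and 2.28 for nlp-47 (0.00881), all then called, nlp-16 was called lower, and nlp-18 missed the threshold at 2.09 (adjusted p = 0.0106). The 2 embryonic groups shared no hybridization day and no chip lot, so that day and lot cannot be told apart from cell type there.

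Of the 10 genes called higher in embryonic neurons 9 (90.0%) were also called higher in the larval pan-neural sample, and these were 23.7% of the 38 larval genes. Since 38 of all 48 nlp genes were called higher in the larval sample, such an overlap lies near the share of the whole family. The exception was nlp-45, with 5.86, 6.09 and 6.60 in the embryonic pan-neural arrays and 4.97 to 5.26 in the reference arrays (1.07 ± 0.18, adjusted p = 0.00914), against a larval pan-neural change of 0.27 ± 0.13 (adjusted p = 0.209). The difference between these changes, larval minus embryonic, was -0.80 ± 0.23 and was not called (adjusted p = 0.0316). nlp-45 was not among the genes the naming rule selected and was picked as the exception after its values were seen.

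Another comparison set the larval pan-neural enrichment against the embryonic one, in a single fit of the 15 arrays. Of 48 genes 7 were enriched more strongly in the larval than in the embryonic sample, and none more weakly. In probe sets these were 13.5% of the 52, beside 3.13% of all probe sets, and for the lower direction 0 of 52 beside 1.88%, where limma gave 2 of the 52 an unadjusted p under 0.05. The median difference was 0.55, against -0.04 over all probe sets. Stage cannot be told apart from method here, since the embryonic RNA came from sorted cultured cells and the larval RNA from pull-downs. Neuronal markers also rose less in the embryonic than in the larval sample. Their medians were 0.73 and 1.30 for the pan-neuronal list and 0.73 and 1.42 for other neuron classes.

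The largest difference was that of nlp-8, at 3.14 ± 0.47 (95% interval 2.14 to 4.14, adjusted p = 0.000739). Its level was 9.09, 8.46 and 9.44 in the larval pan-neural arrays, above the larval references at 6.15, 6.5, 6.49, 7.03 and 6.77. In the embryo it was 7.21, 7.79 and 7.81 in the pan-neural arrays, among or below the references at 7.42, 8.92, 8.09 and 8.90. It was the only one of the 7 whose embryonic change was below 0.

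nlp-89 (difference 2.21 ± 0.31, adjusted p = 0.000498), nlp-5 (2.15 ± 0.38, adjusted p = 0.00211), nlp-69 (2.08 ± 0.21, adjusted p = 5e-05), nlp-62 (2.00 ± 0.30, adjusted p = 0.000716), nlp-15 (1.91 ± 0.33, adjusted p = 0.00208) and nlp-57 (1.52 ± 0.20, adjusted p = 0.000296) followed. Each of these 6 had an embryonic change between 0.65 and 0.87, none of them called, and a larval pan-neural change between 2.30 and 2.87. For nlp-69 the larval pan-neural arrays had 8.23, 8.14 and 8.60 and the larval references 5.21 to 5.67, while the embryonic pan-neural arrays had 4.53, 4.43 and 4.64 and the embryonic references 3.50 to 4.10. All 7 embryonic arrays thus lay under 5, where 32.6% of all probe sets of the embryonic set lay in both groups. nlp-69 overlaps sec-23 in the RefSeq annotation, and nlp-89 overlaps F49F1.14.

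**Figure D2:**
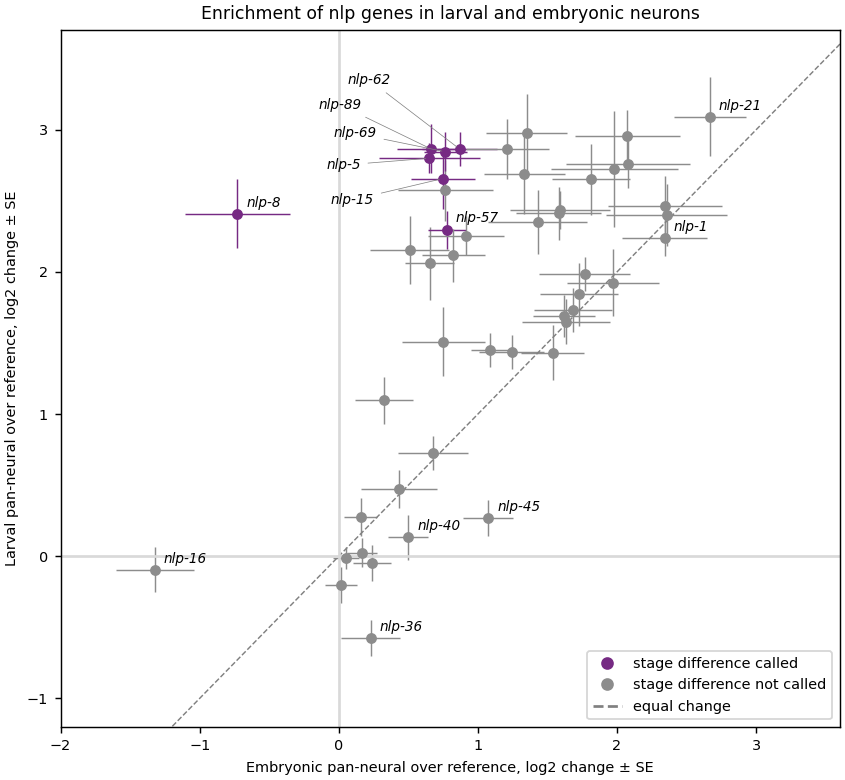
Change of each of the 48 nlp genes over its own reference in the larval pan-neural sample (vertical axis) and in the embryonic pan-neural sample (horizontal axis), both log2 with SE. Purple points are the 7 genes whose larval enrichment exceeded the embryonic one, which lie above the dashed line of equal change, and nlp-8 is the only one of them left of 0.

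A further 9 genes had a larval minus embryonic difference of at least 2-fold that was not called, the largest being nlp-10 (1.81, adjusted p = 0.0111), nlp-80 (1.65, adjusted p = 0.0111), nlp-49 (1.64, adjusted p = 0.0134) and nlp-6 (1.63, adjusted p = 0.0221). The dimmer probe set of nlp-6 differed by 0.78 (adjusted p = 0.112). In some other genes no difference was detected. The larval minus embryonic difference was 0.42 for nlp-21 (95% interval -0.45 to 1.29), -0.11 for nlp-1 (-0.82 to 0.61), 0.02 for nlp-9 (-0.75 to 0.79) and -0.04 for nlp-18 (-0.95 to 0.86). These intervals are wide, and each reached 0.79 log2 units or more above or below 0. The difference of the 7 genes was called in each of the 15 fits that left out an array. With the hybridization day as a random block, an alternative added after the data were seen for single genes, 6 of them were called, and nlp-15 was not (1.84, adjusted p = 0.0108).

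The A-class comparison asked which nlp transcripts were enriched in the small group of neurons with an active unc-4 promoter, most of them A-class motor neurons. Only a few stood out. Of 48 genes 3 were called higher in the larval A-class sample than in the larval reference, namely nlp-21, nlp-9 and nlp-14. With both probe sets of nlp-9 this was 4 of 52 probe sets, or 7.69%, beside 0.776% of all probe sets. The median change of the 52 was 0.02, against -0.01 over all. None was called lower, beside 0.115% of all probe sets, and limma gave 4 of the 52 an unadjusted p under 0.05 in that direction. The groups were apart upward in 8 of the 52 probe sets, as in 3.92% of all.

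nlp-21 had 8.37, 8.22, 8.43 and 8.95 in the A-class arrays and 6.11, 6.41, 6.14, 7.12 and 7.02 in the reference arrays, a change of 1.94 ± 0.24 (adjusted p = 0.00304). It was the only nlp gene called higher in all 3 neuronal samples. nlp-9, the other GGARAF gene, known from the ventral nerve cord as well as from ASI and AWB, had 11.06, 10.43, 10.71 and 10.86 in the A-class arrays and 8.75, 9.09, 9.39, 8.74 and 8.87 in the reference arrays (1.80 ± 0.16, adjusted p = 0.000688), and its second probe set gave 1.71 ± 0.17 (adjusted p = 0.001). nlp-14 had 6.96, 7.14, 6.79 and 7.61 in the A-class arrays and 5.40, 5.29, 5.49, 5.84 and 5.50 in the reference arrays (1.62 ± 0.17, adjusted p = 0.00128). The groups did not overlap for any of the 3 genes.

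The calls of nlp-9 and nlp-14 held in each of the 9 fits without an array, among them the fit without A-class replicate 1. nlp-21 missed the threshold without A-class replicate 3, A-class replicate 4 or reference replicate 2 (adjusted p = 0.0124, 0.011 and 0.0135). No hybridization day held both A-class and reference arrays, so that day and cell type cannot be told apart.

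Below these, nlp-80 changed by 1.11 ± 0.19 (9.85, 9.38, 9.42 and 10.09 in the A-class arrays, 8.16 to 8.82 in the reference arrays) and missed the threshold (adjusted p = 0.0128). Among genes that rose most or have known sensory roles in the larval pan-neural comparison, some overlapped the reference here. nlp-47 had 7.11, 6.48, 6.48 and 6.74 in the A-class arrays and 6.32, 6.80, 6.53, 7.04 and 7.0 in the reference arrays, and nlp-7 had 7.42, 7.31, 7.42 and 7.52 against 7.30, 7.40, 7.35, 7.45 and 7.5. In both genes the groups overlapped, with changes of -0.04 and 0.01. The largest change below 0 was that of nlp-20, at -1.07 ± 0.21 (8.01, 7.52, 8.09 and 7.33 in the A-class arrays, 8.48 to 9.23 in the reference arrays). It did not pass the test (adjusted p = 0.0226), and it was picked after its values were seen.

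**Figure D3:**
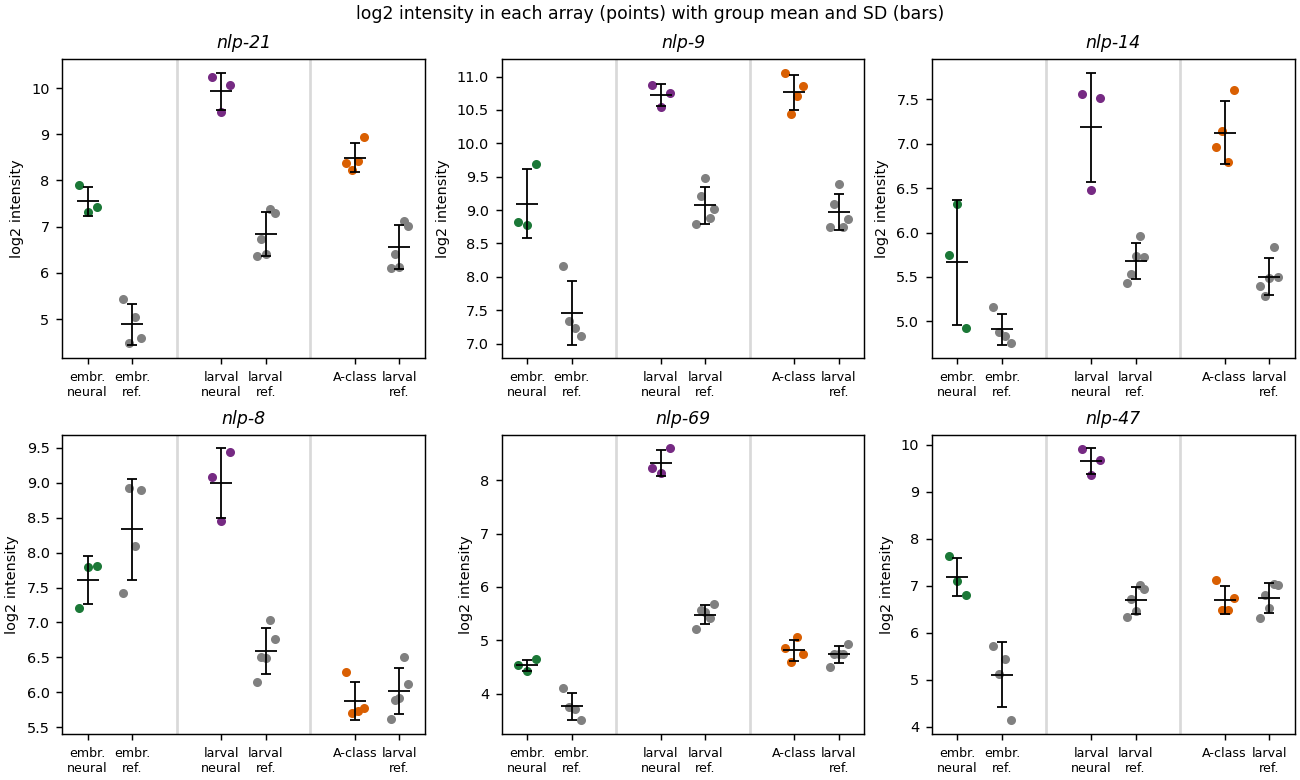
Log2 intensity of 6 nlp genes in every array (points), with group means (horizontal bars) and SD (vertical bars), for the 3 kinds of neuronal array, each left of its own reference. Levels can be compared only within a pair of neighbouring groups. nlp-21, nlp-9 and nlp-14 lie above the reference in the A-class arrays, nlp-47 and nlp-69 do so in the larval pan-neural but not in the A-class arrays, and nlp-8 lies above it in the larval pan-neural arrays alone.

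The last comparison set the A-class enrichment against the larval pan-neural enrichment, each minus the mean of the shared references, so that the references enter it only through these means. For 33 of 48 genes the A-class enrichment was the lower one, with log2 differences between -3.11 and -1.29, and at least 4-fold lower in 24 of them. In probe sets this was 34 of 52, or 65.4%, beside 3.76% of all probe sets. None was called higher in the A-class sample, beside 1.95% of all probe sets, and limma gave 3 of the 52 an unadjusted p under 0.05 in that direction. The median difference was -1.86, against -0.01 over all probe sets.

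The 5 largest differences were those of nlp-89 (-3.11 ± 0.22, adjusted p = 0.00011), nlp-5 (-3.08 ± 0.13, adjusted p = 3.01e-05), nlp-47 (-2.99 ± 0.19, adjusted p = 7.11e-05), nlp-3 (-2.95 ± 0.18, adjusted p = 6.95e-05) and nlp-62 (-2.94 ± 0.11, adjusted p = 2e-05). For nlp-5 the A-class arrays had 6.39, 6.06, 6.18 and 6.34 beside references at 6.39 to 6.64, while the larval pan-neural arrays had 9.54, 9.54 and 9.90 beside references at 6.75 to 6.92. Each of the 5 had an A-class change between -0.28 and -0.04.

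For nlp-9 and nlp-14 no difference between the A-class and the pan-neural enrichment was called, at 0.15 (95% interval -0.21 to 0.50, adjusted p = 0.636) and 0.11 (-0.55 to 0.78, adjusted p = 0.872). On the second probe set of nlp-9 the difference was 0.55 (0.08 to 1.01). Its interval lay above 0, but it was not called (adjusted p = 0.123). nlp-21 was lower in the A-class sample by a difference of -1.16 (-1.66 to -0.65) that missed the threshold (adjusted p = 0.0111) but passed it without A-class replicate 4 (-1.31, adjusted p = 0.00851) or larval pan-neural replicate 2 (-1.38, adjusted p = 0.00425), and nlp-12 missed it too, at -0.65 (-0.93 to -0.36, adjusted p = 0.0116). nlp-40 differed by -0.83 (-1.26 to -0.40, adjusted p = 0.0214), on an A-class change of -0.70 (adjusted p = 0.0905). The number called was 29 to 36 in the 12 fits without an array.

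**Figure D4:**
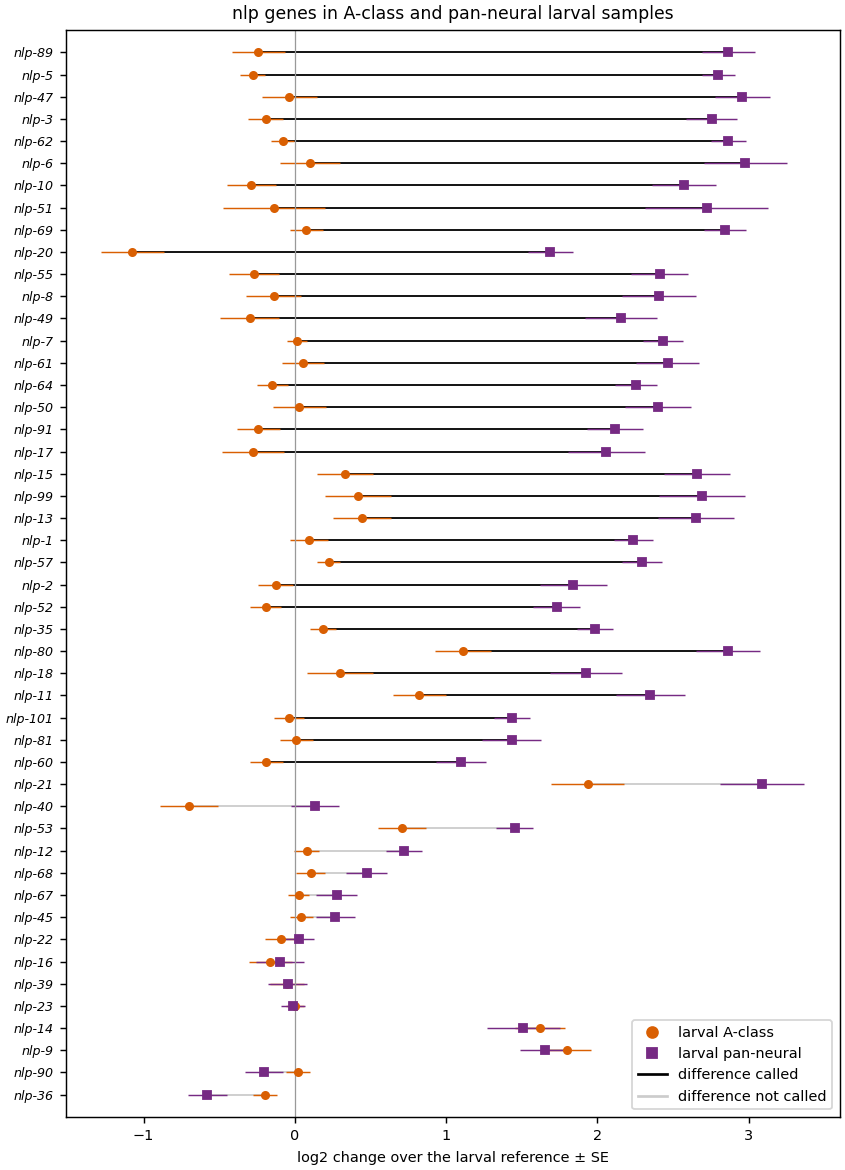
Change over the larval reference for A-class RNA (orange circles) and for pan-neural RNA (purple squares) for the 48 nlp genes, log2 with SE, ordered by the difference. Black lines join the 33 genes whose difference was called. Most orange circles lie near 0. The circles of nlp-9, nlp-14 and nlp-21 lie beyond 1.5, and none of the 3 differences was called.

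Most of the genes for the making and release of peptides were called higher in the larval pan-neural sample. Of 13 genes for peptide processing and dense-core vesicle release 8 were called higher there, with a median of 1.30. They were the proprotein convertases egl-3 (1.97, adjusted p = 0.00114) and kpc-1 (0.65), the carboxypeptidases egl-21 (1.99, adjusted p = 0.00146) and cpd-2 (1.30), the amidating enzymes pghm-1 (1.80) and pgal-1 (1.73), the convertase chaperone sbt-1 (2.01, adjusted p = 9.43e-05) and the vesicle protein ida-1 (1.48). In the embryonic pan-neural sample 1 of the 13 was called, sbt-1 (1.99, adjusted p = 0.00427), with a median of 0.72. In the A-class sample none was called, and before adjustment limma gave a p under 0.05 to 7 with a change above 0 and to 2 below it, cpd-1 (-0.77) and pamn-1 (-0.48). The median there was 0.52. In the larval pan-neural sample cpd-1 (-0.99, adjusted p = 0.019), bli-4 (-0.56, adjusted p = 0.111) and aex-5 (-0.12, adjusted p = 0.773) also lay below 0 without being called. The release gene unc-31 (0.25, adjusted p = 0.18) and pamn-1 (0.04, adjusted p = 0.889) lay above 0 there and were not called either.

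Of 13 receptors with known or probable nlp ligands 3 were called higher in the larval pan-neural sample, the cholecystokinin-type receptors ckr-1 (1.30, adjusted p = 0.000112) and ckr-2 (1.16, adjusted p = 0.000321), the second of which is a receptor of nlp-12 peptides, and pdfr-1 (1.16, adjusted p = 0.000674). In the embryonic pan-neural sample the neuromedin U-type receptor nmur-2 was called (1.16, adjusted p = 0.00294). In the A-class sample none of the 13 was called, and 4 had an unadjusted p under 0.05. The median changes of the list were 0.46, 0.42 and 0.03 in larval neurons, in embryonic neurons and in the A-class sample.

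Most markers of other neuron classes were called higher in the larval pan-neural sample. Of 10 genes that mark glutamatergic, GABAergic, aminergic, touch and ciliated neurons 9 were called higher in the larval pan-neural sample (median 1.42) and none in the A-class sample (median -0.08), where 2 had an unadjusted p under 0.05 and a change below 0. Of the 10 measured epidermal-type nlp genes some were called lower in each neuronal sample. These were 5 in embryonic neurons, 4 in larval neurons and 2 in the A-class sample, with medians over the 10 of -0.80, -1.17 and -0.38, and none was called higher.

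In the RefSeq annotation 18 of the 48 genes (37.5%) lie on the X chromosome, beside 13.8% of all named genes on the array. On X 13 of 18 were called higher in the larval pan-neural sample, and elsewhere 25 of 30. Some members are direct neighbours among coding genes. nlp-45, nlp-22, nlp-23 and nlp-2 follow each other on X inside the span of a larger gene, T01B6.1. nlp-2 was called higher in both pan-neural samples and nlp-45 in the embryonic one. nlp-22 and nlp-23 lay near the floor and were called in neither, and differences between these neighbours were not tested. nlp-90 and nlp-91 are also neighbours on X, and nlp-91 was called in the larval pan-neural sample (2.12 ± 0.19, adjusted p = 8.79e-05) while nlp-90 lay near the floor (-0.20 ± 0.13). On chromosome V nlp-9 lies next to nlp-13, both were called in the larval pan-neural sample, and nlp-9 but not nlp-13 was called in the A-class sample, where nlp-13 had 7.34, 7.23, 7.17 and 7.13 against 6.27, 6.79, 6.58, 6.79 and 7.44 in the reference arrays.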

How the data were processed

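RNA was amplified in 2 rounds, labelled with biotin and hybridized to Affymetrix C. elegans arrays. The authors deposited one intensity per probe set on a linear scale, made by robust multi-array analysis (RMA, no version given in the sources used here) separately for 3 sets of arrays, so levels were compared within a set only. The deposited fluidics and scanner records, whose other fields hold no expression values, gave hybridization day, chip lot and wash protocol. The titles place 3 larval references in the embryonic set. Their percentiles differed by at most 0.129 (log2) from the larval pan-neural arrays and by up to 0.574 from the embryonic ones, so they were used with the larval set, as the series design states. The 2 versions of a larval reference had squared correlations of 0.991 to 0.993.

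Intensities were turned to log2, 77 control probe sets were left out and 22548 were tested with limma 3.58.1 in R 4.3.3, with no filter. The fits were checked on simulated data, with each fold change placed on 67 probe sets drawn from the whole array. There 4-fold changes were recovered in 89.6% of cases for the embryonic pan-neural comparison, 95.5% for the larval pan-neural and 100% for the A-class. For 2-fold changes this was 23.9%, 55.2% and 58.2%. The noise was normal, with 1 spread per probe set averaged over all groups, so that these rates do not describe the nlp genes. In the embryonic data 2 nlp genes with rises of at least 4-fold were called, but nlp-3 (4.22-fold), nlp-47 (4.21-fold) and nlp-50 (5.12-fold) were not. Probe sets were named from the platform annotation, which gives a single gene for 20766, and gene positions relative to each other came from RefSeq (WBcel235). The sources used here name no genome build for the array, and no sequences are shown. Of the nlp probe sets 12 are marked as shared between transcripts or open to cross-hybridization. On arrays, precision is limited by the number of arrays and by signal over background.

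Named in full were the 6 genes with the largest rise in each neuronal sample, the 5 with the largest called difference in each direction between samples, genes called in all 3 samples and 12 genes with known roles. Other genes were named as exceptions or family members. The members and lists were chosen with earlier results of these data known. The alternatives were leaving out each array, a minimum mean log2 intensity of 6 in a compared group, adding 16 before log2, a variance trend with intensity, the hybridization day and the replicate number as a block.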

Additional observations from a re-analysis of the deposited data

Results flagged for a closer look

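Among 22 named genes, 88 groups of 4 or 5 arrays were searched for an array far from the rest, and 6 were found. Chance gives about 1 in 20. In larval A-class replicate 1 the log2 intensity was 6.29 for nlp-8 (next array 5.78), 8.77 for nlp-3 (next 8.40) and 7.70 for nlp-15 (next 6.85). In embryonic reference replicate 1 it was 6.99 for nlp-13 (next 6.13) and 7.29 for nlp-15 (next 6.52). In larval reference replicate 1 of the A-class set nlp-2 had 5.18 (next 4.88).

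Enrichment that differed between the larval and the embryonic pan-neural sample by the test of the difference itself (limma, larval minus embryonic, log2) was found in nlp-8 (3.14), nlp-89 (2.21), nlp-5 (2.15), nlp-69 (2.08), nlp-62 (2.00) and nlp-15 (1.91), with adjusted p of 5e-05 to 0.00211. All 3 larval pan-neural arrays lay above all larval references in each of them. These are the genes among the 22, and nlp-57 (1.52) was also called.

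Enrichment that differed between the A-class sample and the whole larval nervous system (A-class minus pan-neural, log2) was called in 33 genes, and among the 22 these were nlp-89 (-3.11), nlp-5 (-3.08), nlp-47 (-2.99), nlp-3 (-2.95), nlp-62 (-2.94), nlp-6 (-2.88), nlp-69 (-2.77), nlp-8 (-2.55), nlp-7 (-2.42), nlp-15 (-2.33), nlp-13 (-2.21), nlp-1 (-2.14), nlp-2 (-1.97), nlp-52 (-1.92), nlp-80 (-1.75) and nlp-18 (-1.63), with limma adjusted p of 2e-05 to 0.00232. The dimmer probe set of nlp-6 differed by -0.29 and was not called (limma adjusted p = 0.0933).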

How the results depend on the processing

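For the named genes 1619 values were recomputed under other settings, and none changed direction where it was called. The call was the same in 1509, lost in 82 and gained in 28. The embryonic count of nlp probe sets called higher (11) became 22 with a minimum log2 intensity of 6, 4 with 16 added before log2, 17 with a variance trend and 2 with the hybridization day as a random block, and the count called lower became 1 (nlp-16) with the minimum. Leaving out an array gave 0 to 23 higher and 0 to 1 lower there. In the larval pan-neural sample these ranges were 38 to 40 and 0 to 1 (nlp-36, without replicate 2), the count was 26 with the day as a fixed block and 0 of 52 and of all 22548 within the single day with both groups, a fit added after seeing the data. In the A-class sample they were 3 to 4 and 0 to 0, for larval minus embryonic enrichment 7 to 11 (11 without larval pan-neural replicate 2) and 0 to 0, and for A-class minus pan-neural enrichment 0 to 0 and 29 to 36. Larval minus embryonic enrichment gave 13 with the minimum. The minimum tests fewer probe sets, and the cause of the other shifts was not tested. For the minimum, the added 16, the variance trend, the day as a block and the replicate block below, no share of all probe sets is given. Those counts do not show whether the nlp genes shifted apart from the whole array.

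Replicate numbers did not pair the arrays, since deviations of same-numbered arrays correlated by 0.049 to 0.333 in the embryo, -0.234 to 0.149 in the larval pan-neural set and -0.425 to -0.079 in the A-class set. With the number as a replicate block the counts called higher were 6 in the embryonic pan-neural, 33 in the larval pan-neural and 1 (nlp-21) in the A-class sample, and none was called lower. Signal near the floor limits nlp-22, nlp-23, nlp-39, nlp-67 and nlp-90.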
